A study of Drosophila melanogaster with 4 samples.

Results

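The loci of 3 early ecdysone response genes of Drosophila melanogaster, Eip74EF (CG32180), Eip75B (CG8127) and br (broad, CG11491), were examined in a map of chromatin binding by Cmi in embryos of 0 to 8 h. Their intervals had been fixed by position on FlyBase release 5, on 3L from 17540000 to 17620000 for Eip74EF, on 3L from 17940000 to 18070000 for Eip75B and on X from 1460000 to 1610000 for br. A peak belonged to a locus when its midpoint lay in the interval, which gave 24 of the 3110 peaks of the map. Of these, 21 lay in the Eip75B interval, 3 in the Eip74EF interval and 0 in the br interval.

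Chromatin was immunoprecipitated with an affinity-purified polyclonal rabbit antibody raised against full-length Cmi (2 libraries), with 2 further libraries made from input DNA. All 4 libraries came from whole embryos, of unknown sex, of the strain Exd-GFP-13T. Its genotype is w; PBac{y[+]-attP-3B}VK00033, and it carries a transgene of extradenticle (exd) in which GFP takes the place of the stop codon, so no library lacks that transgene. The extraction protocol in the labels names another stock and a later collection, so stage and strain are given here as each sample states them. The libraries are represented by 1 list of peaks with a start, an end and a score each and with no value per library, so that replicate error, depth and the agreement of the replicates are unknown, and a mixture of embryonic cell types lies behind every peak. The loci were chosen by the positions and numbers of their peaks in this same list, so every comparison is a description of the list and carries no p-value.

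Ecdysone is the steroid hormone that times moulting and metamorphosis in insects. It binds a heterodimer of the nuclear receptors EcR and usp, which directly switches on a small set of early genes, seen as the early puffs of larval polytene chromosomes, and the products of these genes in turn regulate many late genes. Eip74EF encodes transcription factors with an ETS DNA-binding domain, Eip75B encodes nuclear receptors that bind heme, and br encodes zinc-finger proteins with a BTB domain. All 3 are long genes with several promoters. Cmi (also named Lpt) belongs to the Trithorax-related complex, an enhancer-bound methyltransferase of histone H3 lysine 4, and the catalytic subunit of that complex, trr, is known as a coactivator of EcR. Expression was not measured in these embryos, so whether the genes were active is not known from these data.

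The 3 loci differed widely in the number of Cmi peaks. The Eip75B interval, of 130 kb, held 16.2 peaks per 100 kb, the Eip74EF interval, of 80 kb, held 3.75 per 100 kb, and the br interval, of 150 kb, held none. The sequences as a whole, from their first to their last peak, held 2.22 peaks per 100 kb on 3L (540 peaks) and 1.81 on X (395 peaks). Peaks covered 9.10% of the Eip75B interval (11830 bp) and 0.979% of the Eip74EF interval (783 bp), whereas they covered 1.31% of 3L.

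**Figure D1:**
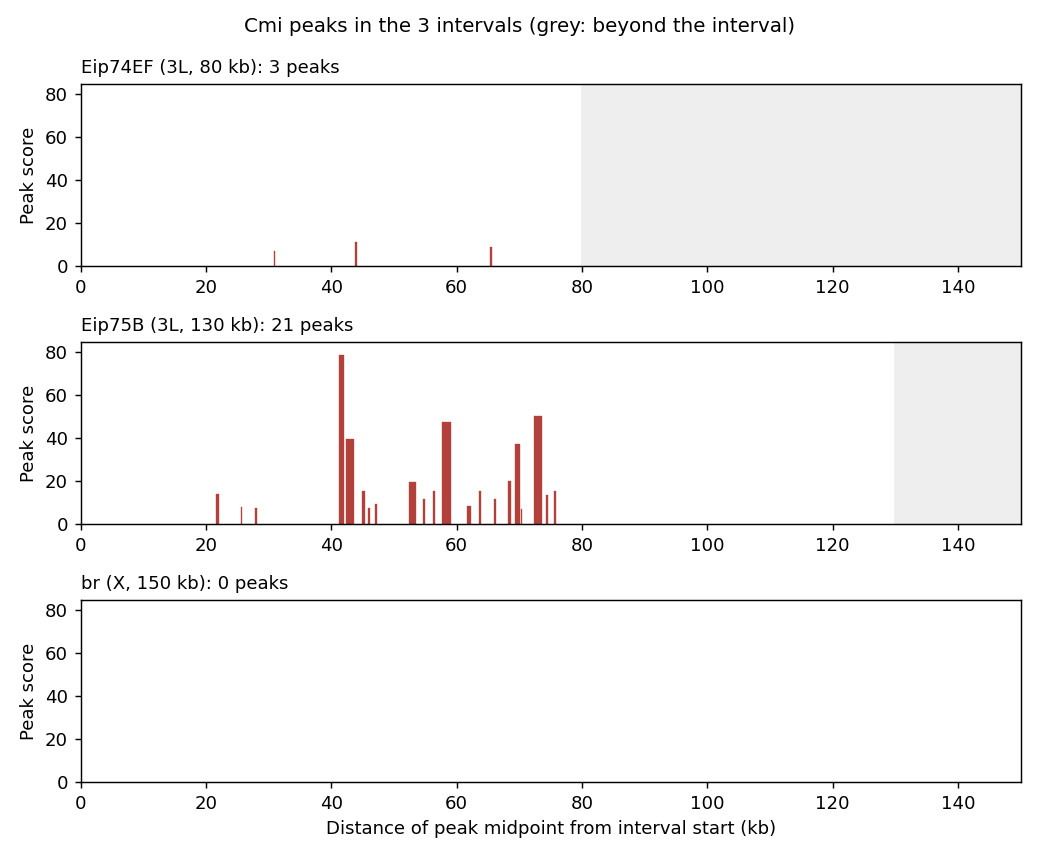
Cmi peaks in the intervals of Eip74EF, Eip75B and br, with the distance from the start of the interval in kb on the horizontal axis and the authors' deposited score on the vertical axis. Each bar is 1 peak drawn at its own width; the 21 peaks of Eip75B occupy the stretch between about 20 and 80 kb and reach a score of 78.59, the 3 peaks of Eip74EF stay at or below 11.09, and the br panel is empty.

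Eip75B carried a dense array of Cmi peaks within a limited stretch of the interval. Its 21 peaks ran from 17961533 to 18015892 on 3L, a span of 54.4 kb or 41.8% of the interval, while the last 54.1 kb of the interval held no peak. In bins of 10 kb counted from the start of the interval, 5 of 13 bins held all of the peaks, with 3 peaks between 20 and 30 kb and 5, 4, 5 and 4 peaks in the bins from 40 to 80 kb. Each of the 21 peaks had its nearest neighbour at most 5 kb away (between midpoints), against 62.0% of the 540 peaks of 3L and 61.3% of the list.

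At this distance the peaks of Eip75B formed 3 separate groups. The first, of 3 peaks, ran from 17961533 to 17968139 and had scores of 13.99, 8.11 and 7.44. The second, of 5 peaks, ran from 17981140 to 17987288 and was the most compact, with 54.1% of its 6.15 kb under peaks and gaps of 299 to 1181 bp. The last, of 13 peaks, ran from 17992493 to 18015892, with 31.7% of its 23.4 kb under peaks and gaps of 305 to 2675 bp (median 1168 bp). Only 5204 bp between peak edges separated the groups of 13 and 5 peaks, and 13000 bp separated the groups of 5 and 3 peaks. Among the 308 groups and single peaks of 3L, 1 group besides that of Eip75B held 13 peaks or more, and on 2L, 2R, 3L, 3R and X together 3 of 1519 reached that size, the group at Eip75B included. The size depended on the chaining distance, as the fullest group of the locus held 4 peaks when midpoints up to 2 kb apart were chained and 18 peaks at 10 kb.

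The highest peak of the 3 loci opened the second group. It lay on 3L at 17981140 to 17981976, was 837 bp wide and scored 78.59, the fourth-highest score of the 540 peaks of 3L. Its neighbour at 17982276 to 17983632, 299 bp away, scored 39.72 over 1357 bp, and the remaining 3 peaks of the group scored 15.30, 7.44 and 9.19. The group thus held a strong pair at its lower end and weaker peaks beyond it.

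In the group of 13 the high peaks were spread along the array. The peak at 18012380 to 18013550 scored 50.16 (1171 bp), that at 17997627 to 17999109 scored 47.48 and, at 1483 bp, was the widest of the locus, and that at 18009294 to 18010020 scored 37.25 (727 bp). The other 10 peaks of the group scored between 6.93 and 20.01, so that weak peaks lay between and beside the strong ones. The lowest of them, 6.93, belonged to a peak of 217 bp at 18010326 to 18010542, 305 bp from the peak scoring 37.25. The score of 15.30 occurred in 4 of the 21 peaks of Eip75B and in 33 peaks of the whole list.

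The peaks of Eip75B were numerous rather than uniformly strong or wide. Their median score was 15.3 (quartiles 9.19 and 20.01), against 14.1 for the 516 peaks of 3L outside the 2 loci (quartiles 10.7 and 21.0). Their median width was 383 bp (quartiles 271 and 727 bp), against 454 bp for those peaks of 3L (304.8 and 724.8 bp). Scores over 28.44, the upper quartile of the list, were found in 5 of the 21 peaks, or 23.8%, compared with 14.8% of all 3L peaks and 24.9% of the list, and scores above the median of the list (15.75) in 7 of 21, compared with 40.6% of 3L peaks and 49.5% of the list. Of the 21 peaks, 4 or 19.0% were wider than 1 kb, compared with 12.4% of 3L peaks and 12.3% of the list. These 4 made up 42.9% of the bases covered at the locus. They scored 19.52 or more, with a median of 43.6, against a median of 13.56 for the 17 narrower peaks. Among the narrower peaks, 3 also scored above 19.52, at 78.59 (837 bp), 37.25 (727 bp) and 20.01 (411 bp). Width and score are both set by the peak caller from the same reads.

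**Figure D2:**
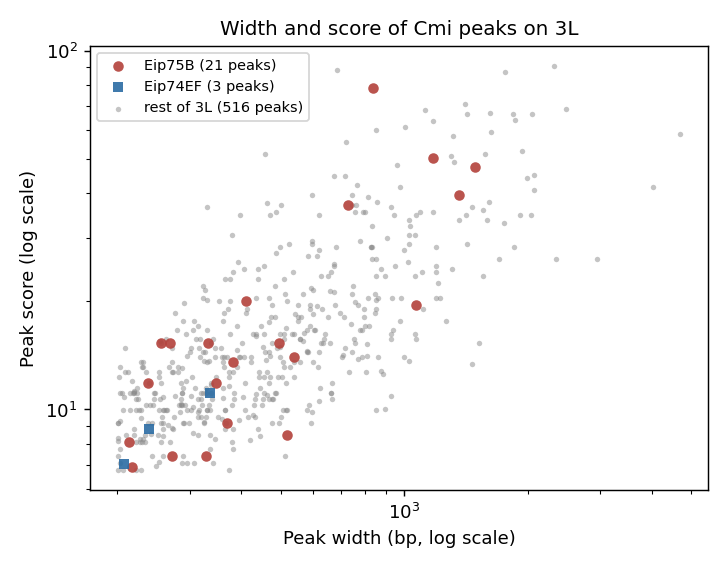
Width in bp (horizontal, log scale) and score (vertical, log scale) of the 21 peaks of Eip75B, the 3 peaks of Eip74EF and the 516 other peaks of 3L, 1 point per peak. The points of Eip75B lie within the cloud of the other peaks, up to the peak scoring 78.59, and those of Eip74EF lie at its lower left.

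The deposited scores could be read as read heights for most peaks. The recurrent scores of the list followed the negative log10 of a Poisson tail with a background of 31.1 reads (77 of 84 recurrent values within 0.0061). Within the same limit, 17 of the 21 peaks of Eip75B lay on that series, against 76.1% of 3L peaks and 64.7% of the list. On this reading the score of 50.16 corresponds to a height of 4.72 times the background, 47.48 to 4.59 times, 37.25 to 4.08 times, 15.30 to 2.76 times and 7.44 to 2.12 times. The 4 peaks outside that limit, among them the top peak at 78.59, were given no height. Their scores include 8.11 and 39.72, which also occur at other peaks of 3L. A peak outside the limit may therefore still belong to the series, which was not tested.

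Few stretches of 3L held as many peaks as Eip75B. Stretches of 130 kb were moved along 3L in steps of 10 kb, and of the 2394 that did not touch the interval, 9 or 0.376% held at least 21 peaks. The median stretch held 2 peaks (quartiles 0 and 4), 26.0% held none, and the mean was 2.79, so the Eip75B interval held 7.54 times the mean. The stretches included the longest peak-free gap of 3L, of 1516 kb, which raises the share without a peak and lowers the mean. How well reads can be placed in that gap was not tested. All 9 lay at 1 place near the end of the arm, between 520000 and 750000, where the fullest stretch held 25 peaks with a median score of 14.92 and a top score of 40.99. By covered bases, 23 stretches or 0.961% reached the 11830 bp of Eip75B, whose value was 7.18 times the mean. Laid end to end, 1 of 186 stretches held at least 21 peaks. After joining of peaks less than 1 kb apart, the locus kept 14 regions and no other stretch of 3L held as many. Overlapping stretches are not independent, and the locus was chosen with its peaks in view, so these ranks are no test.

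**Figure D3:**
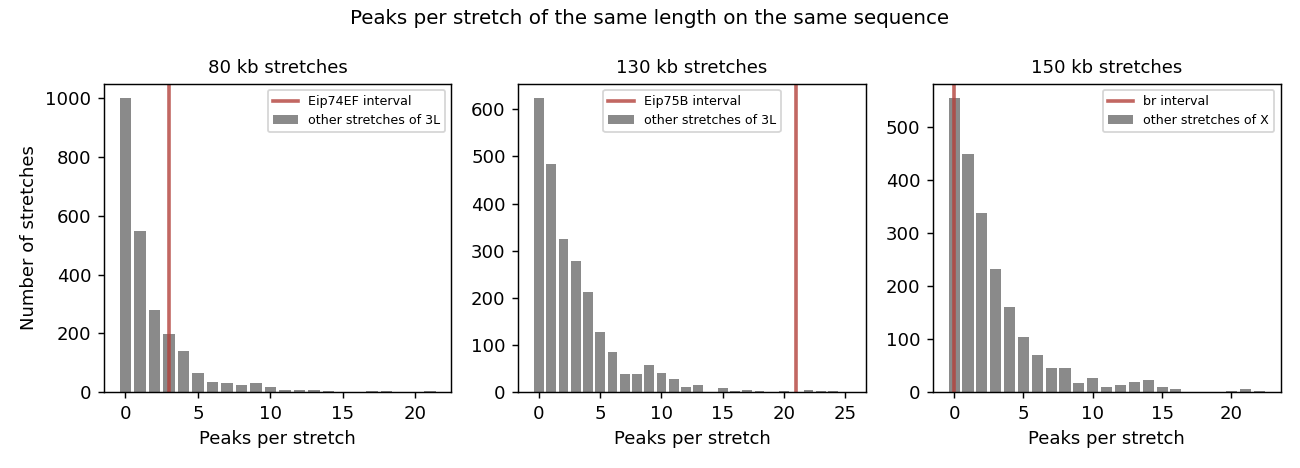
Number of Cmi peaks in stretches of 80 kb on 3L, 130 kb on 3L and 150 kb on X, moved in steps of 10 kb (bars, number of stretches), with the count of the Eip74EF, Eip75B and br interval as a vertical line in its own panel. The line stands at 3 peaks for Eip74EF, at 21 peaks for Eip75B, far into the tail, and at 0 peaks for br, on the tallest bar.

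The array of Eip75B stopped short of the borders of its interval. The first peak inside lay 21.8 kb from the lower border and the nearest peak outside, at 17849716 to 17850041 (326 bp, score 9.19), lay 90.1 kb beyond it. At the upper border the last peak inside, at 18015560 to 18015892 (333 bp, score 15.30), lay 54.3 kb from it and the nearest outside, at 18107532 to 18107808 (277 bp, score 10.89), 37.7 kb beyond it. The array was therefore bounded by peak-free gaps of 111.5 kb below and 91.64 kb above. Gaps at least as long were not rare on 3L, at 12.4% and 16.1% of its 539 gaps, whose median was 8.22 kb. The flanks of 130 kb held 1 peak on the lower and 5 on the upper side, against 21 in the interval. Lengthening or shortening the interval by 10 kb at each end could not change the count of 21, because no peak lay within 10 kb of a border.

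Eip74EF, on the same arm as Eip75B, carried only weak and scattered peaks. They lay at 17570769 to 17570976 (208 bp, score 7.07), at 17583759 to 17584094 (336 bp, score 11.09) and at 17605401 to 17605639 (239 bp, score 8.83). None had another peak within 5 kb, none exceeded the median score of the list and none was wider than 1 kb. Of all 540 peaks of 3L, 62.0% had such a neighbour, 40.6% exceeded that median and 12.4% were wider than 1 kb. With only 3 peaks, the lack of a wide one does not set the locus apart from 3L. The peaks of Eip74EF stood 12782 and 21306 bp apart, edge to edge. The lowest score ranked 533 and the highest 367 of the 540 peaks of 3L. The 2 peaks on the common score series reached 2.44 and 2.25 times the background.

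The count at Eip74EF was not unusual for 3L. Of 2409 stretches of 80 kb outside the interval, 582 or 24.2% held at least 3 peaks and 84.0% held 3 or fewer. The median stretch held 1 peak (quartiles 0 and 2), and 41.5% held none, the peak-free gap of 1516 kb being included here too. By covered bases, 34.8% of the stretches reached the 783 bp of Eip74EF, which lay at 0.752 times the mean, although by number of peaks the interval lay at 1.71 times the mean. The flanks of 80 kb held 3 peaks each, as many as the interval. Just outside its borders lay a peak at 17523064 to 17523836 (773 bp, score 13.81), 16.6 kb below, and one at 17637549 to 17637753 (205 bp, score 11.09), 17.7 kb above. Inside, the nearest peaks to the borders lay 30.9 and 14.5 kb away. Between the intervals of Eip74EF and Eip75B, 320 kb of 3L held 5 peaks with scores of 9.19 to 23.57.

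At br no Cmi peak was called. The interval lay inside a peak-free gap of X that ran from 1421160 to 1793296, or 372.1 kb, the ninth-longest of the 394 gaps between neighbouring peaks of X. The median gap on X was 9.96 kb and the longest 913.7 kb. The nearest peaks were a weak one at 1420953 to 1421159 (207 bp, score 9.19), 38.9 kb below the interval, and a stronger one at 1793297 to 1794164 (868 bp, score 39.72), 184 kb above it. Counting any overlap with the interval, or lengthening it by 10 kb at each end, could not change the result, because the nearest peaks lay farther away.

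**Figure D4:**
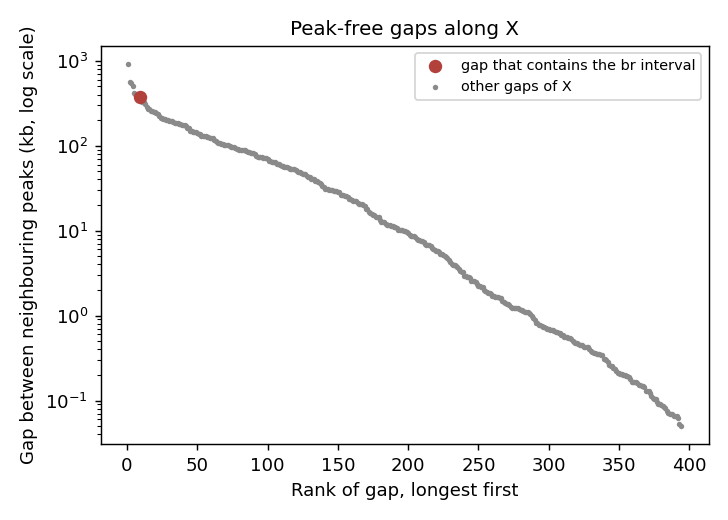
Length in kb of the 394 gaps between neighbouring Cmi peaks of X (vertical, log scale) against their rank, longest first. The gap that contains the br interval, 372.1 kb, is the ninth from the left.

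A stretch of X without a peak was common. Of 2139 stretches of 150 kb on X outside the interval, 554 or 25.9% held no peak, and the median held 2 (quartiles 0 and 4). In all, 44 gaps of X were long enough to contain an interval of 150 kb. Since X was compared only with itself, the copy number of X in embryos of unknown sex does not enter these ranks, but it cannot be told apart from other reasons for the lower density of X when br is set beside the 2 loci of 3L. The peaks of the file are numbered from 1 to 3110 without a break, but this cannot show whether a region at br was dropped before numbering. A list of called peaks does not show that Cmi is absent where no peak is listed, and how well reads can be placed at br was not tested.

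In the gene table of release 6, Eip74EF lies between CycT and Vps60, Eip75B between CG5290 and CG44006 with CG32192 and CG42393 overlapping it, and br between CG14795 and dor with Mur2B overlapping it. That table is on another build than the peaks, so single peaks were not assigned to promoters, introns or these neighbours.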

How the data were processed

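The submitters' processing notes name BWA, MACS2, the build BDGP5 and CASAVA (1.7.0.2, 1.7.0.3). What each tool did, with which thresholds, and any pooling of replicates is not given in the sources used here. Positions are on FlyBase release 5 and MACS is the caller, per the file headers. The authors deposited 1 list with a start, an end and a score per peak; no scale is stated for the score, and positions are 1-based. The score was read as a Poisson tail by scanning backgrounds from the values themselves.

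The intervals, and the choice of measures, were made with earlier results of these data known. Every peak in the intervals could be named by position, with the groups of 3 or more, the 3 highest scores, the widest peak and the peaks at the borders given in full. Peaks were counted by midpoint and chained into groups at 5 kb. Stretches of equal length ran from the first to the last peak of a sequence in steps of 10 kb, leaving out those that touched the interval. The counting was tested on simulated data. The comparison with other genes of the ecdysone pathway was not run, and no sequence is printed, for want of a release 5 genome and annotation among the data used here. Python 3.11.15, NumPy 2.4.6, SciPy 1.17.1 and Matplotlib 3.10.9 were used.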

Additional observations from a re-analysis of the deposited data

How the results depend on the processing

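Of 75 alternatives for 14 values, 57 stayed within 1.5 times the count or within the 95% Wilson interval of the share, computed as if over stretches laid end to end. Some of the 57 could not have moved. At br, with 0 peaks and the nearest 38.9 kb outside, these were the alternatives for the count (6), the fullest group (2) and the shares with at least as many peaks (9) or covered bases (2). At Eip74EF, whose peaks lay far from each other and from the borders, the fullest group was fixed. So was its count after joining, by any overlap and with the interval changed by 10 kb. The Eip75B count was likewise fixed by any overlap and with the interval changed by 10 kb. Among peaks scoring above the median of the list, Eip75B held 7 peaks and Eip74EF 0, and above the upper quartile 5 and 0. With none left at Eip74EF, the share of stretches with at least as many peaks became 100% by construction under both limits, and the share of stretches with as many or fewer 61.4% above the median; for covered bases above the median it was also 100%. Joining peaks within 1 kb moved the share of stretches with at least as many peaks as Eip74EF to 17.4% and with as many or fewer to 90.8%. Shortening the interval by 10 kb at each end gave 17.3% and 89.0%, and lengthening it 30.5% and 78.9%. For Eip75B, joining left 0% of stretches with at least as many regions, and the share ran from 0 to 1.38% over its alternatives. Its fullest group held 4 peaks when chained at 2 kb and 18 at 10 kb. The share of stretches of X without a peak was 46.5% above the median score and 71.8% above the upper quartile, fewer peaks being counted. The share with as many peaks or fewer was added after seeing the data. No paired analysis was possible because each peak has 1 value for all libraries, and replicates could not be left out in turn either.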
